A study of Rattus norvegicus with 399 samples.

Results

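Liver of unexposed rats was compared with heart, kidney, lung and ovary of the same rats to describe the transcripts that set liver apart. Of the 399 libraries of the series, 97 were used, namely every 0 ppm library of these tissues that the submitters had not marked as unused. They comprised 20 liver, 20 heart, 19 kidney, 18 lung and 20 ovary libraries. The donors were 20 female Sprague-Dawley rats, 9 weeks old, an outbred stock, sampled on study day 5. A set of 10 rats served as the 0 ppm controls of 1,2-dichlorobenzene (1,2-DCB) and a separate set of 10 as those of 1,4-dichlorobenzene (1,4-DCB), so none of these animals carried an exposure. Liver samples came from the left lobe. RNA was measured by TempO-Seq with the S1500+ rat panel, in which pairs of oligonucleotides that meet on a chosen transcript are ligated and counted, and 2654 probes with 2603 gene symbols were measured. Of these, 2447 probes passed the filter on low counts. Among them, 8.38% were liver-high, meaning higher in liver than in each of the other 4 tissues at a log2 fold change of at least 2 and an adjusted p below 0.05, and 5.27% were liver-low by the mirrored rule. These shares are 7.72% and 4.86% of the 2654 probes on the panel.

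The liver is made up mostly of hepatocytes, which secrete most proteins of the blood plasma, make bile acids, build urea from ammonia, release and store glucose, synthesise cholesterol and ketone bodies, and carry most of the enzymes that oxidise and conjugate drugs. Its blood vessels hold resident macrophages, the Kupffer cells, and its bile ducts are lined by cholangiocytes. Hepatocytes take this identity from a small set of transcription factors, among them HNF1, HNF4, the C/EBP proteins, FOXA proteins and ONECUT1 (HNF6), which bind in the promoters and enhancers of hepatocyte genes.

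Levels are given as normalised CPM (counts per 1000000), deposited counts divided by the library total and by a normalisation factor. Totals ran from 1.2 to 66.9 M counts with a median of 21.8 M. Liver had the highest median of the 5 tissues, 44.3 M (31.4 to 66.9 M), but its range overlapped those of kidney and ovary, and these totals include the attenuation adjustment, by which counts of some probes are multiples of a whole step. With each probe divided by its step, as read from the values, the medians were 6.84 M in liver, 7.38 M in heart, 7.24 M in kidney, 6.51 M in lung and 9.02 M in ovary. A few transcripts filled the liver libraries. The liver-high probes together took 91.2 to 93.7% of the counts of a liver library, against 0.407 to 0.944% in heart, 1.37 to 2.1% in kidney, 1.22 to 1.84% in lung and 1.73 to 3.1% in ovary. The normalisation factor of liver was low, with a median of 0.163, and normalised CPM of liver are on a scale common to all tissues but sum to far more than the number of counts they are scaled to. Counts of different probes depend on how well each probe detects its transcript, so levels are compared between tissues and not between genes. Some libraries stood apart. In 6 of the 10 hearts of the 1,4-DCB controls, liver-high transcripts were detected above 100 parts per 1000000 of their liver level, the liver of 1,2-DCB control 8 held the highest or lowest value in more transcripts than any other liver, and the kidney of 1,4-DCB control 1 held the highest Thrsp level of its tissue. As shares of the panel, liver-high and liver-low probes came to 7.80% and 4.86% without these 6 hearts, to 7.76% and 4.86% without that liver, and to 7.76% and 4.75% without that kidney.

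The difference between liver and the mean of the other tissues passed the test in 85.7% of the probes tested, 2096 of 2447 (edgeR quasi-likelihood test, Benjamini-Hochberg adjusted p below 0.05). Of these, 947 were higher in liver (38.7%) and 1149 were lower (47%). Against single tissues, liver was called higher in 41.3% of probes and lower in 42.3% for heart, in 36.5% and 44.3% for kidney, in 39.1% and 46.3% for lung, and in 40% and 46.1% for ovary. At a log2 fold change of at least 2 these shares were 20.3% and 16.3% for heart, 14.4% and 14.1% for kidney, 20% and 20.8% for lung, and 18.7% and 20.2% for ovary. The same rule applied to the other tissues gave 77 high and 51 low probes for heart, 85 and 17 for kidney, 84 and 29 for lung, and 85 and 14 for ovary. In 12.4% of probes the lowest liver lay above the highest library of any other tissue, and 197 of the liver-high probes were among them. In 5.11% the highest liver lay below every other library, and these held 57 of the liver-low probes. The split depended on the scaling. The median log2 difference of all probes was -0.17 with the factors used here, -0.13 with DESeq2 size factors, -0.84 with upper quartile factors, -2.10 with totals after removal of the attenuation steps and -3.44 with plain library totals. The share of called probes that were higher in liver was 45.2%, 46.6%, 29.6%, 17.3% and 11.5% in that order. With plain totals, 4.22% of the panel met the liver-high rule and 52.2% the liver-low rule, against 7.72% and 4.86% with the factors used here.

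**Figure D1:**
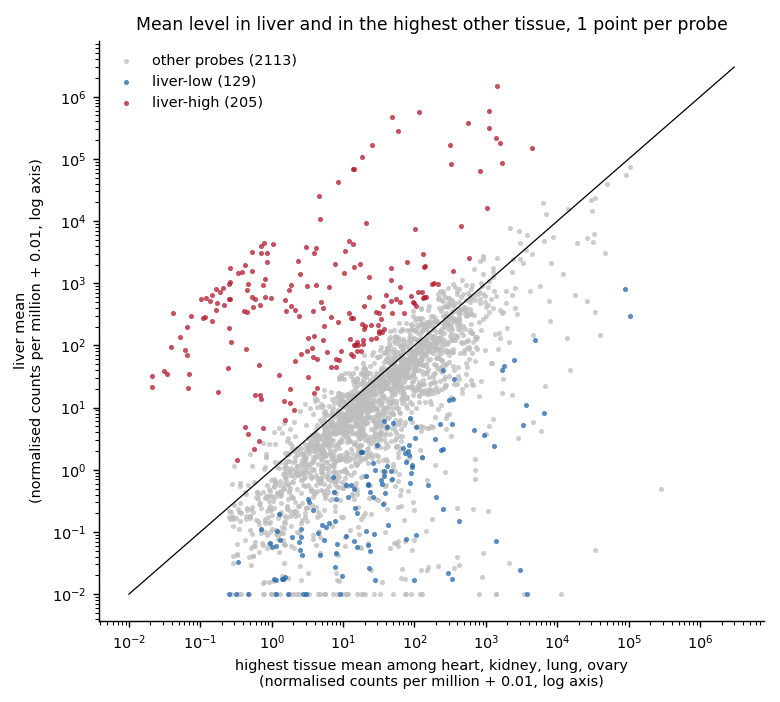
Mean normalised CPM of each of the 2447 probes tested in liver (vertical axis) and in the highest of the other 4 tissues (horizontal axis), both on log axes with 0.01 added, 1 point per probe. The liver-high probes lie above the diagonal of equal levels, by 3.99-fold to 10900-fold, and the liver-low probes lie below it, some of them at 0 in liver.

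Mean levels of the liver-high probes in liver were 3.99 to 10900 times those in the tissue with the next highest mean, with a median of 77.2. The excess was at least 1000-fold for 27.8% of them, between 100-fold and 1000-fold for 21.5%, and under 100-fold for 50.7%. The next tissue was kidney for 52.7%, lung for 16.6%, ovary for 16.6% and heart for 14.1%. Nearest to the limit inside the class was Maob, whose log2 difference from the nearest tissue was 2.03, and just outside it were B4galnt1 at 1.995 and Ube2l6 at 1.99. On the low side Ngb (-2.01) and Ifitm2 (-2.02) lay just inside, and Hbegf (-1.995) and Dyrk3 (-1.97) just outside.

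Carrier proteins of the plasma were nearly all liver-high. All 27 probes tested were called higher in liver, 25 of them were liver-high, and their median log2 difference was 11.41, against -0.17 for all probes. Alb encodes albumin, the main protein of plasma. Its levels in liver ran from 399000 to 782000 normalised CPM (median 560000), against 4.72 to 602.7 in kidney (median 63.6), 0.658 to 751 in heart (6.72), 0.386 to 65.9 in lung (5.69) and 0 to 40.8 in ovary (4.29). Every liver lay far above every other library, and the highest heart values came from 1,4-DCB controls 1 and 7. The log2 difference was 14.99 ± 0.55 (approximate SE; edgeR quasi-likelihood test, adjusted p = 4.01e-40, higher in 20 of 20 livers than in any other library). Gc, the vitamin D binding protein, ranged from 29200 to 122000 in liver (median 37200) and reached at most 57.2 in any other library. Apoh, beta-2-glycoprotein I, ranged from 85200 to 154000 in liver (median 104000) and reached at most 87.6 elsewhere. Tf, the iron carrier transferrin, took 23.8% of the deposited liver counts on average, Fga 9.49%, Alb 9.18% and Mug1, a murinoglobulin of the alpha-2-macroglobulin family, 7.56%, together 50.0%. Each of these probes has an attenuation step of 10, as read from the values, so the shares describe the deposited counts and do not rank the transcripts. Unlike Alb, Tf was also measured at steady levels elsewhere, from 462 to 2270 normalised CPM over the other tissues, and its liver mean was 1040 times that of ovary, the next tissue.

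Coagulation factors, complement, and acute phase proteins followed the same pattern. All 18 probes of coagulation and fibrinolysis were called higher, with 16 liver-high and a median of 12.17. F9, coagulation factor IX, was measured at 1280 to 2310 normalised CPM in liver (median 1720) with no count in 16 of 20 hearts and 18 of 20 ovaries and a highest value of 2.53 outside liver, in a heart. Liver and the other tissues did not overlap. Its log2 difference was 15.09 ± 0.24 (edgeR quasi-likelihood test, adjusted p = 1.19e-65). Plg, the precursor of plasmin, varied little between livers, from 9850 to 12900 (median 10900), and reached at most 14.5 in other tissues. Fga, the alpha chain of fibrinogen, was an exception to the low levels elsewhere, as kidney held 720 to 1980 (median 1100) against 401000 to 861000 in liver. All 19 complement probes were called higher and 14 were liver-high, with a median of 10.43. C8a, a subunit of the membrane attack complex, ran from 285 to 538 in liver (median 360) and did not exceed 1.63 elsewhere. C4bpa, a chain of the C4b-binding protein that restrains complement, ran from 1050 to 1630 in liver (median 1200), and lung stood out among the other tissues with 14.2 to 33.2 (median 23.4). The complement members outside the class included C1qb (2.20 ± 0.073, but -1.11 with plain library totals) and C1qc, subunits of the C1q recognition protein that macrophages make. Another subunit, C1qa, was liver-high, with means of 2.937 in liver and 0.6617 in ovary, the next tissue. Among 12 acute phase probes, all called higher against the mean of the tissues, 11 were liver-high. The other, A2m, had means of 4.69 in liver and 150.9 in ovary. Crp, C-reactive protein, ran from 1570 to 5670 in liver (median 4520) and did not exceed 8.99 elsewhere.

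**Figure D2:**
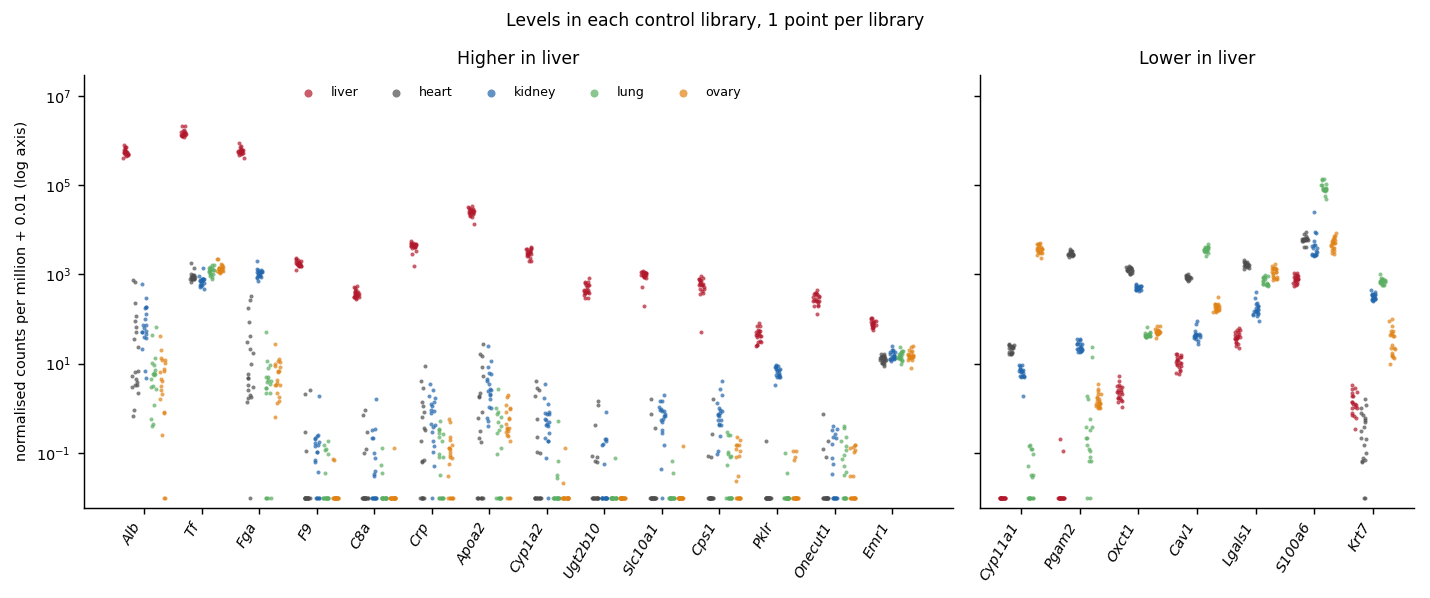
Normalised CPM of 14 transcripts higher in liver (left) and 7 lower in liver (right), on a log axis with 0.01 added, 1 point per control library and 1 colour per tissue. Alb ran from 399000 to 782000 in liver and stayed at or below 751 elsewhere, and Cyp11a1 was at 0 in every liver.

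Lipoprotein genes were called higher in all 10 probes tested, and 7 were liver-high. A call against the mean of the tissues did not make liver the highest in each. Scarb1 had means of 17 normalised CPM in liver and 457.1 in ovary, and Pltp 29.01 in liver and 49.27 in lung. Apoa2, a protein of high density lipoprotein, ran from 13600 to 33800 normalised CPM in liver (median 25700) and did not exceed 27.7 elsewhere. Fabp1, which carries fatty acids in the hepatocyte cytosol, ran from 52500 to 91100 (median 67900) against at most 83 elsewhere. Apoc1, a small apolipoprotein, ran from 202000 to 367000 in liver (median 284000), and from 28.7 to 113.4 in ovary, with at most 328 in any other library. Of 8 iron and metal handling probes, all called higher, Tf, Hpx (hemopexin, which binds heme), Hp (haptoglobin, which binds haemoglobin) and Cp (ceruloplasmin, a copper oxidase) were liver-high. Hp ran from 54.8 to 105.3 in liver (median 80.6), and every liver exceeded all other libraries.

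The promoters of 5 of these secreted-protein genes are shown because they hold letters that are known binding motifs of the hepatocyte transcription factors. Each run gives the 250 bases before the annotated start of transcription in the direction of the gene, from RefSeq on the build GRCr8. Capitals mark matches on either strand to GTTAATNA (HNF1), TTGCNCAA (C/EBP), TGTTTGC (FOXA), CAAAGTNCA (HNF4) or TATAAA (the TATA box). No match overlaps another. Alb lies at chr14:17906980-17907229 (minus strand), Gc at chr14:18916005-18916254 (plus strand), F9 at chrX:143388392-143388641 (plus strand), Tf at chr8:112695377-112695626 (minus strand) and Fgb, the beta chain of fibrinogen, at chr2:170700876-170701125 (minus strand).
Alb: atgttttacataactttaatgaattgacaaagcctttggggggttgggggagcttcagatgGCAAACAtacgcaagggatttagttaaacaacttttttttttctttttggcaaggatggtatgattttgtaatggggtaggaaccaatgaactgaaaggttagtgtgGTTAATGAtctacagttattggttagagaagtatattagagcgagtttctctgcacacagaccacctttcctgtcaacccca
Gc: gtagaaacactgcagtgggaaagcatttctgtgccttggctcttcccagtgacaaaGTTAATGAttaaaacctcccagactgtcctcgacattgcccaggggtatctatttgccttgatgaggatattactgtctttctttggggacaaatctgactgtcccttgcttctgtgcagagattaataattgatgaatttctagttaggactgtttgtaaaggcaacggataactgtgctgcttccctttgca
F9: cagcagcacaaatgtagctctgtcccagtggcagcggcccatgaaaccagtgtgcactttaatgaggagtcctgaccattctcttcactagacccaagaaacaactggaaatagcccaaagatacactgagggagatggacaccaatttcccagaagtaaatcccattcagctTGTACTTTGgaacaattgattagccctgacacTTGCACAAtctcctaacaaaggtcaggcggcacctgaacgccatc
Tf: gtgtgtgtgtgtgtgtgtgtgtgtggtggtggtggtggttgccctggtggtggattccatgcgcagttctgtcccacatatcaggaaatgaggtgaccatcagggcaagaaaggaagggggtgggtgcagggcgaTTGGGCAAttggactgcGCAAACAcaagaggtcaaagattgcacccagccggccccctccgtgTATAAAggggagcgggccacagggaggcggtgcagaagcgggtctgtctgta
Fgb: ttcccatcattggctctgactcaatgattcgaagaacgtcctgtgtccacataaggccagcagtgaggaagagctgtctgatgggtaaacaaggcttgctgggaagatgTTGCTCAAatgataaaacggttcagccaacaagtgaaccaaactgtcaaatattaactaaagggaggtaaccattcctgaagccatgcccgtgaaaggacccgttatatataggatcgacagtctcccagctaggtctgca

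In Alb the capitals are a FOXA and an HNF1 match, in Gc an HNF1 match, in F9 an HNF4 and a C/EBP match, in Tf a C/EBP, a FOXA and a TATA box match, and in Fgb a C/EBP match. Windows of 300 bases, from 250 before to 50 after the start, were found for 80.4% of the 194 liver-high genes (164 windows), for 81.5% of the liver-low genes and for 80.1% of all genes tested. The HNF1 letters were in 9.15% of these windows, in none of the liver-low windows, in 2.14% of the windows of all tested genes and in 2.59% of all 33469 rat windows in RefSeq. The C/EBP letters were in 12.8%, 3.7%, 3.77% and 2.61% in the same order, and the FOXA letters in 13.4%, 2.78%, 4.12% and 4.88%. The HNF4 letters were in 4.27%, 0%, 1.88% and 1.24% in that order. The TATA box, which is not a liver motif, was in 17.7%, 10.2%, 11.05% and 14.2%. Sult2a2, Sult2a6, Slco1b2 and Tf were the liver-high genes with a window that held 3 of the 5 motifs. A match is a description of the letters in the window, and binding was not measured.

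**Figure D3:**
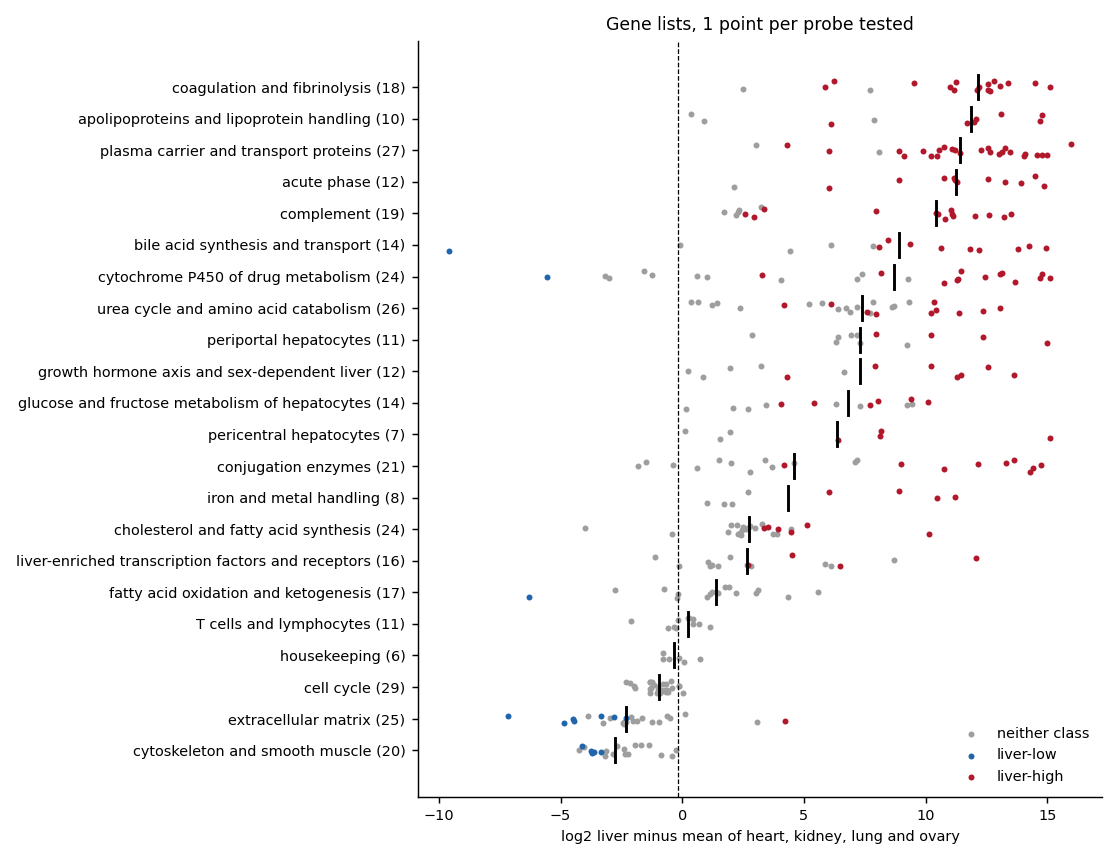
Log2 difference between liver and the mean of heart, kidney, lung and ovary for each probe tested in 22 gene lists, 1 point per probe, with a black bar at the median of each list and a dashed line at -0.17, the median of all probes. Coagulation sits highest with a median of 12.17 and the cytoskeleton list lowest with -2.76; the number of probes tested stands in brackets.

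Among cytochrome P450 enzymes of drug metabolism, 19 of 24 probes were called higher, 2 lower, and 13 were liver-high (median 8.72). Cyp1a2, which oxidises caffeine and aromatic amines, ran from 2020 to 4170 normalised CPM in liver (median 3100) and did not exceed 3.99 elsewhere (log2 difference 15.11 ± 0.29, edgeR quasi-likelihood test, adjusted p = 8.91e-60). Every liver lay above all other libraries. Cyp2e1, which oxidises ethanol, was also present in kidney, at 471 to 1620 (median 1040) against 11100 to 26800 in liver (median 15700). A call against the mean of the tissues did not make liver the highest in each. Cyp2b1 had means of 5.043 in liver and 1097 in lung, and Cyp2b2 28.94 in liver and 416.7 in lung. A Cyp4a2 probe had 844.9 in liver and 2520 in kidney. Both members called lower have a main site elsewhere. Cyp1b1 was liver-low, with 0 to 1.34 in liver (median 0.145) against 17.7 to 68.1 in ovary and 13 to 27.8 in heart. Cyp4a8 was set by kidney alone, where it ran from 3010 to 9120 against 0 to 13.3 in liver, and its sign turned when kidney was left out (log2 difference 2.17). Whether these probes separate close relatives was not checked here, so a family member named in the Cyp2b, Cyp2c, Cyp2d, Cyp3a, Cyp4a, Sult2a, Ugt2b or Serpina3 families is uncertain.

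Enzymes that attach sulfate, glucuronic acid or glutathione to compounds were called higher in 18 of 21 probes, with 9 liver-high and a median of 4.58. The sulfotransferase Sult2a6, with 2 probes in the class, and the glucuronosyltransferases Ugt2b1 and Ugt2b10 were among the liver-high members. Ugt2b1 ran from 165 to 475 normalised CPM in liver (median 276) and did not exceed 0.591 elsewhere. Among the glutathione S-transferases, Gstz1, the zeta class enzyme, was liver-high, with a mean 4.39 times that of kidney, the next tissue. Gstp1, the pi class enzyme, was lower in liver than in every other library, at 9.47 to 31.6 (median 16.4) against 97.2 to 160 in kidney and 33.4 to 53.8 in heart (log2 difference -1.80 ± 0.073, edgeR quasi-likelihood test, adjusted p = 1.06e-37). Sult1c2 was called lower through kidney, where its median was 177 against 0 in liver and in heart (log2 difference from kidney -10.03). Its fitted log2 differences from heart, lung and ovary were above 0, at 1.92, 1.45 and 0.73, at levels of at most 0.791 in these tissues and in liver.

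Bile acid genes were called higher in 12 of 14 probes and 9 were liver-high (median 8.90). Slc10a1 encodes NTCP, the sodium-coupled importer of bile acids from blood, and ran from 200 to 1210 normalised CPM in liver (median 972) with at most 1.96 elsewhere. Abcb11 encodes BSEP, the pump that moves bile acids into bile, and ran from 306 to 426 (median 343) with at most 1.37 elsewhere. Akr1d1, the steroid 5-beta-reductase of bile acid synthesis, had the largest excess over the next tissue of any liver-high probe, 10900-fold over kidney, with 128.7 to 435 in liver and at most 0.406 in any other library. Its means were 0.031 in kidney, 0.030 in ovary, 0.027 in lung and 0.014 in heart. These are near the detection limit, so the size of this fold and the next tissue rest on few counts. The exception to this direction was Slc51a, a subunit of the organic solute transporter that lets bile acids out of cells at the basolateral side. It was liver-low, at 0 in 19 of 20 livers and 0.155 in the other, against 167 to 685 in ovary (median 270), 8.9 to 25.7 in kidney and 1.19 to 9.03 in lung. Heart overlapped liver, at 0 to 0.802.

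All 26 probes of the urea cycle and amino acid breakdown were called higher, and 10 of them were liver-high. Cps1, the first enzyme of the urea cycle, ran from 51.4 to 898 normalised CPM in liver (median 593) and did not exceed 4.14 elsewhere. The lowest liver, that of 1,2-DCB control 9, lay far under the next, at 370, yet above all other tissues. Otc, the second enzyme of the cycle, was steadier, from 612 to 932 (median 790), with at most 2.48 elsewhere. Tdo2, which starts tryptophan breakdown, ran from 397 to 1460 (median 482) with at most 1.3 elsewhere.

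Of 14 probes of sugar metabolism, 13 were called higher and 6 were liver-high (median 6.81). Pklr, the pyruvate kinase of liver, ran from 24.7 to 81.3 normalised CPM in liver (median 44.3) against 3.36 to 9.5 in kidney. Slc2a2, the glucose transporter GLUT2, ran from 59.9 to 155.3 (median 133.6) against 9.77 to 42.1 in kidney. Both were at or near 0 in heart, lung and ovary. Khk (ketohexokinase), which starts fructose breakdown, overlapped between liver and kidney instead, at 265 to 428 in liver and 262 to 450 in kidney, and did not exceed 1.12 in any other tissue.

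Fatty acid oxidation did not set liver apart from each tissue. Of 17 probes, 12 were called higher and 4 lower, none was liver-high and 1 was liver-low; the median was 1.39, but -1.92 with plain library totals and -0.55 with totals after removal of the steps, in each case above the median of all probes. Cpt1b, the muscle form of the carnitine acyltransferase, was called lower, at 912 to 1090 normalised CPM in heart against 1.85 to 5.69 in liver, a range that overlaps that of lung. Acot1, an acyl-CoA thioesterase, was liver-low, with 0 in 15 of 20 livers and 49.2 to 95.4 in kidney. Its highest liver, at 0.574, lay within the range of lung (0.0826 to 0.68). Oxct1, which lets cells use ketone bodies as fuel and is not one of these 17 probes, was liver-low. Its levels were 1.07 to 5.16 normalised CPM in liver (median 2.31), 1030 to 1520 in heart, 435 to 599 in kidney, 38.9 to 65.2 in lung and 37.3 to 70.5 in ovary, without overlap (log2 difference -6.36 ± 0.095, edgeR quasi-likelihood test, adjusted p = 1.94e-68).

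Cholesterol and fatty acid synthesis was called higher in 22 of 24 probes, with 6 liver-high and a median of 2.74, which turned to -0.56 with plain library totals. Nsdhl, an enzyme of late cholesterol synthesis, ran from 346 to 534 normalised CPM in liver (median 424) and did not exceed 34.3 elsewhere. Thrsp, a lipogenic protein of liver and fat, ran from 1630 to 7300 (median 2580), and its next tissue, kidney, held 1.46 to 1190. Kidneys of 1,2-DCB control 8 and 1,4-DCB control 1 both stood near the upper end, and the kidney median was 5.3. The stearoyl-CoA desaturases went in opposite directions. Scd1 ran from 31.1 to 499 in liver (median 129.4) but was not liver-high, with means of 170.2 in liver, 84.85 in ovary and 55.6 in lung. Scd ran from 0 to 2.52 in liver (median 0.379) against 24.6 to 66.6 in ovary and 9.19 to 73.4 in lung.

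Transcription factors and receptors of liver were called higher in 14 of 16 probes, but 4 were liver-high and the median was 2.67 (-0.63 with plain library totals). Onecut1 was liver-high, at 127.6 to 439 normalised CPM in liver (median 274) and at most 0.738 elsewhere. Cebpa, Nr1i2 (the pregnane X receptor) and Rxra were the other members of the class. Hnf4a was shared with kidney, at 171 to 302.1 in liver and 174 to 244 in kidney, and did not exceed 1.33 elsewhere. Nr1h4, the bile acid receptor FXR, ran from 67.2 upward in liver (median 84.8) and from 30.8 to 56.6 in kidney, without overlap. Of 12 growth hormone and sex-dependent liver probes all were called higher and 7 were liver-high (median 7.29). Liver was not the highest tissue for all of them, as Igfbp3 had means of 53.86 in liver and 112.6 in kidney, and Stat5b 37.21 in liver and 46.62 in ovary. All rats used were female, so these calls do not describe a sex difference. A1bg, which is higher in female than in male rat liver, ran from 45.5 to 217 (median 80.8) and did not exceed 0.221 elsewhere. Genes of hepatocytes near the central vein were called higher in 6 of 7 probes and those of hepatocytes near the portal vein in 11 of 11, with 4 liver-high in each list; Rgn (regucalcin, 106.9 to 172 in liver) and Cyp2e1 belong to the former and Cps1 and Otc to the latter. Outside the lists lay 80 of the liver-high probes, among them Mug1, at 339000 to 573000 in liver (median 450000) and at most 470 elsewhere, the largest log2 difference of the class at 16.86 ± 0.64 (edgeR quasi-likelihood test, adjusted p = 3.23e-39).

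Kidney was the tissue that shared most with liver. Leaving it out raised the liver-high share of the panel from 7.72% to 11.8%, against 7.99% without heart, 8.55% without lung and 8.78% without ovary. In 4.70% of the probes tested, liver passed the threshold against heart, lung and ovary but not against kidney, compared with 0.45% for heart, 1.02% for lung and 1.02% for ovary in the place of kidney. Of the probes shared with kidney, liver was called higher than kidney in 73 and lower in 19. Dao, a D-amino acid oxidase, was among the latter, with means of 3116 normalised CPM in liver, 47070 in kidney and at most 13.02 elsewhere. Cat (catalase) was among the former, with 7660 in liver and 2196 in kidney. The split of 73 and 19 holds for the normalisation factors used here, whose medians were 0.163 in liver and 1.25 in kidney. It was not counted with plain library totals, under which liver levels are lower relative to kidney. The 25 shared with ovary held genes of cholesterol synthesis, among them Sqle, Idi1 and Dhcr7. Dhcr7, the last enzyme of cholesterol synthesis, had means of 56.07 in liver and 65.6 in ovary. The 25 shared with lung held Cyp2f4, a P450 of lung, with means of 118.8 in liver and 137.6 in lung and under 3 elsewhere.

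Cytoskeleton and smooth muscle genes were called lower in 20 of 20 probes, against 47% of all probes, with 5 liver-low and a median of -2.76. Extracellular matrix genes were called lower in 22 of 25, with 7 liver-low and a median of -2.32. Lgals1, galectin-1, ran from 23 to 62.7 normalised CPM in liver (median 39), 90.2 to 410 in kidney, 546 to 976 in lung, 755 to 1670 in ovary and 1300 to 2090 in heart. Liver lay under every other library (log2 difference -4.13 ± 0.1, edgeR quasi-likelihood test, adjusted p = 1.31e-52). S100a6, a calcium-binding protein, and Cav1, the caveolin that shapes pits of the cell membrane, were likewise under every other library, with lung highest at 48900 to 136000 and 2590 to 4790 against 547 to 1070 and 5.74 to 16.5 in liver. Postn, periostin of the matrix, was at 0 in 11 of 20 livers and at 0.833 or less in the others, against 245 to 575 in lung. Kidney, at 0.151 to 10.8, overlapped liver. An exception in the matrix list was Fn1, fibronectin, which hepatocytes secrete into plasma. It was liver-high, at 424 to 716 in liver (median 471) against 26.4 to 87.2 in lung and less in the other tissues.

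Pgam2, Slc25a4, Acss1 and Cyp11a1 were among the 10 liver-low probes with the lowest differences. Pgam2, the muscle phosphoglycerate mutase, was at 0 in 18 of 20 livers and at 0.197 or less in the others, against 2470 to 3670 in heart and 18.2 to 36.2 in kidney, and it overlapped lung, whose median was 0.211. Slc25a4, the ADP/ATP carrier of heart and muscle, ran from 2.52 to 12.8 in liver, under every other library, against 4450 to 7600 in heart. Acss1, the mitochondrial acetyl-CoA synthetase, ran from 1.18 to 3.67 in liver, and its medians were 202.2 in heart, 228 in kidney, 18.6 in lung and 17 in ovary. Cyp11a1, which makes pregnenolone from cholesterol, had no count in any liver. Against ovary, where it ran from 2350 to 4970 (median 3650), this is at least 178000-fold lower, taking 3 counts over all livers (0.021 normalised CPM) as the floor. Liver overlapped lung, where 9 of 18 libraries had no count and the mean was 0.038. Against the lung mean the same floor bounds the difference at only 1.81-fold, so the place of Cyp11a1 in the class rests on the fitted value. It is 1 of 9 liver-low probes without a liver count. Cell cycle genes were called lower in 24 of 29 probes, against 47% of all probes, with a median of -0.95, and none was liver-low. For most of them ovary had the highest mean, and for some liver was close to or above heart and kidney. Ccnb2 had means of 6.947 in liver, 4.471 in heart, 5.272 in kidney and 38.16 in ovary. Aurka, at 3.052 in liver, 1.913 in heart and 21.94 in ovary, changed sign when ovary was left out. By contrast Pcna, the clamp of DNA replication, ran from 33.7 to 60.6 in liver and its lowest value elsewhere was 65.9. Of 6 housekeeping probes, 1 was called higher and 3 lower (median -0.34), and of 11 lymphocyte probes 2 were called in each direction.

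The cell type markers matched the tissue labels. All 12 hepatocyte probes were called higher, 11 were liver-high, and their summed level was 1830000 to 2610000 normalised CPM in liver, 407 to 2590 in heart, 1480 to 4070 in kidney, 184 to 604.5 in lung and 347 to 3720 in ovary. The 5 cardiomyocyte probes summed to 0 to 2.05 in liver and 207000 to 386000 in heart, the 3 kidney tubule probes to 0 in every liver and 116.5 to 201.8 in kidney, and the 8 ovarian probes to 68.9 to 151.3 in liver and 3620 to 7310 in ovary. The ovarian sum in liver was nearly all Inhba, a subunit of activin and inhibin, at 68.3 to 150.8 in liver and 67.7 to 894 in ovary, while 6 of those 8 probes had a liver mean under 0.05. Over all probes, 38.7% were called higher and 47% lower. All 6 Kupffer cell and macrophage probes were called higher (median 2.23, but -1.07 with plain library totals), and 2 were liver-high. Emr1, the macrophage surface protein F4/80, ran from 57.6 to 105.8 in liver (median 78.5) and did not exceed 25.5 elsewhere, although its sign turned with plain library totals (-0.86). Of 4 general endothelial probes, 3 were called lower, among them Vwf (von Willebrand factor). The fourth, Kdr (a VEGF receptor), was called higher, and turned to -2.49 with plain library totals. The 3 cholangiocyte probes were all called lower. Krt7, a keratin of ducts that other epithelia also hold, ran from 0.333 to 3.32 in liver against 567 to 1010 in lung. The lists of sinusoidal endothelium and lung epithelium had no probe on the panel. Erythroid probes were called lower in 3 of 3. Hbb, a beta chain of haemoglobin, ran from 382 to 1250 in liver, from 2970 to 8480 in lung and from 142.1 to 526 in ovary. Of 5 neutrophil probes, 1 was called in each direction. In whole tissue, fewer cells of a type and less RNA per cell cannot be told apart.

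Livers resembled each other closely in most of these transcripts. Over the 158 liver-high probes with a mean of at least 100 normalised CPM, the coefficient of variation between the 20 livers had a median of 14.9% (range 5.14 to 57.98%), against 13.1% for 350 other probes at that level, and 72.2% of them lay under 20%. The steadiest was Ambp, the precursor of alpha-1-microglobulin and bikunin, at 3290 to 3980 (5.14%), followed by Serpind1, Itih1, Bbox1 and Plg. The most variable were Dpyd (57.98%), the first enzyme of pyrimidine breakdown, Cyp3a1 (54.6%), Cp (53.3%), Gc (47.5%) and Thrsp (47.01%). A single liver, that of 1,2-DCB control 8, held the highest value in 53 of the 158 probes and the lowest in 25. Its Gc level was 122000 and its Cp level 7110, above ranges of 29200 to 57100 and 1330 to 2610 in the 19 other livers. Cyp3a1 was 4510 there against 542 to 1990, and Tdo2 1460 against 397 to 715. Serpina3c, a serpin of the acute phase family, was 44.7 there against 274 to 819, Slc10a1 200 against 514 to 1210, and Crp 1570 against 2890 to 5670. Without this liver no gene named by rule changed direction, and S100a9, a neutrophil protein, lost its call (0.27, adjusted p = 0.0671, edgeR).

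**Figure D4:**
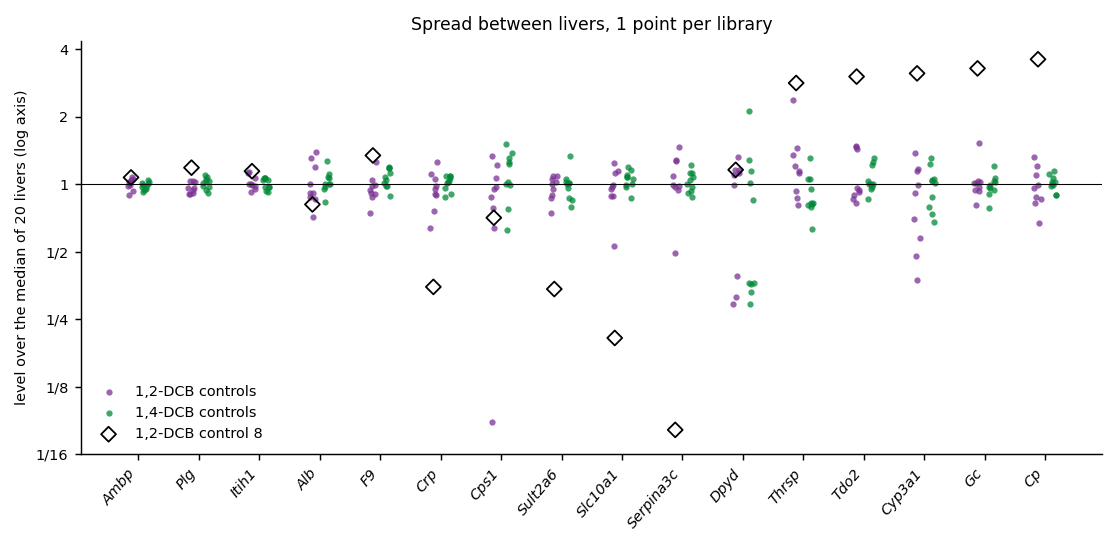
Level of 16 liver-high transcripts in each of the 20 livers, divided by the median of the 20 livers, on a log axis, with the set of control rats in colour and 1,2-DCB control 8 as an open diamond. Ambp, Plg and Itih1 vary little, control 8 stands out in Serpina3c (44.7 against 274 to 819 in the others) and Cp (7110 against 1330 to 2610), and Dpyd has no liver between 57.99 and 126.7 normalised CPM.

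The contrast was repeated in 2 sets of rats that share no animal. In both sets 196 probes were liver-high, which is 97.5% of those of the 1,2-DCB controls and 94.7% of those of the 1,4-DCB controls. For liver-low the shares were 83.7% and 81.1%. Of 2432 probes tested in both sets, 2293 had the same sign. The log2 difference of the liver-high probes differed between the sets by a median of 0.34 and at most 2.22. Alb gave 15.16 and 14.92, F9 15.95 and 15.28. The difference itself passed the test in 29 probes (1.19%; edgeR quasi-likelihood interaction test, adjusted p below 0.05), with 0.327% larger and 0.858% smaller in 1,4-DCB controls, none of them liver-high and 3 liver-low, and in 28 of them its size was under 1 on the log2 scale. Without the liver of 1,2-DCB control 8 the share of the panel fell from 1.09% to 0.603%. Tsku, a secreted protein that hepatocytes make, had means of 375 in liver and 29.2 over the other tissues in 1,2-DCB controls, against 214 and 31.7 in 1,4-DCB controls (log2 difference -0.92 ± 0.19, adjusted p = 0.00356, edgeR). The chaperones Bag3, Dnajb1 and Hyou1 were also among those with a lower difference in 1,4-DCB controls, Dnajb1 with liver means of 27.4 and 17.8. The sets were run for different compounds, so the set and any difference in handling cannot be told apart.

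Small amounts of the liver-high transcripts were counted in the other tissues, and these set the size of the largest folds. Over the 99 liver-high probes with at least 500 normalised CPM in liver, the median level was 242 to 1430 parts per 1000000 of the liver level in kidney libraries, 58 to 278 in lung, 49.7 to 272 in ovary and 0 to 1530 in heart. The hearts differed by set. All 10 hearts of the 1,2-DCB controls lay at or below 49.3, and 6 of the 10 hearts of the 1,4-DCB controls lay above 100. The part of carried-over tissue, blood or reads in these amounts was not tested. The high ends of the heart ranges given above, such as 751 for Alb, fall in these libraries, so a ratio of means to heart is smaller with them than without.

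**Figure D5:**
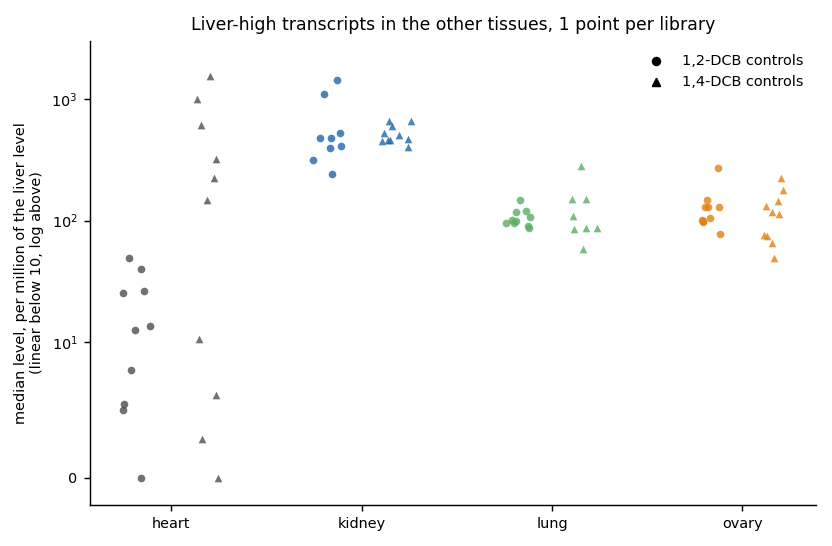
Median level of 99 liver-high transcripts in each library of the other tissues, in parts per 1000000 of their mean liver level, on an axis that is linear below 10 and logarithmic above, with circles for 1,2-DCB and triangles for 1,4-DCB controls. Kidney runs from 242 to 1430, and heart is split, from 0 to 49.3 in 1,2-DCB controls and from 0 to 1530 in 1,4-DCB controls.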

How the data were processed

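Counts were deposited by the authors as raw read counts per probe, adjusted for attenuation. Alignment used Bowtie 1.3.1, per the submitters' processing notes, with settings and probe reference not given in the sources used here. In 104 probes all counts were multiples of a whole number from 3 to 10, taken from the values as the attenuation step. The steps were kept, so counting error at these probes is larger than the counts imply. Library totals ran from 1.2 to 66.9 M.

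All probes of the 97 libraries were fitted with edgeR 4.0.16 in R 4.3.3 (TMM factors, filterByExpr by tissue, robust quasi-likelihood test, Benjamini-Hochberg adjustment), with tissue and rat as terms. The rat is the compound with the animal number in the title. Same-rat libraries of different tissues had a mean correlation of deviations of 0.154 over 188 pairs, against -0.017 over 1692 pairs of different rats. Liver was tested against the mean of the other tissues, against each tissue, and for a difference between the control sets. Values after ± are approximate standard errors, the size of the log2 difference divided by the square root of the F statistic of the test. Alternatives used DESeq2 1.42.0, limma 3.58.1, other scalings, filters, samples and no block.

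Genes were named by rule: the 15 liver-high probes with the largest difference at 100 CPM or more in liver, the 10 lowest liver-low probes, up to 4 leading members of each list and 2 against its direction at 20 CPM or more, the 5 most and 5 least variable liver-high probes, and the 5 largest interactions. Others were named after their values were seen. Some genes these rules name, and 1 marker list, are not reported here. The members and lists were chosen with earlier results of these data known. Counts of probes under the alternatives are given as a percent of the 2654 probes on the panel. The script was tested on simulated data. Rats are the replicates, and the 3 libraries the submitters marked as unused were left out.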

Additional observations from a re-analysis of the deposited data

Results flagged for a closer look

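Within each compound's 10 control livers, 33 of 270 groups of values (12.2%) held a single liver far from the rest by Dixon's test. Chance flags about 5% of unselected groups, which is no fair value here, since the genes include the 5 liver-high probes that vary most between these livers and all genes share the same libraries. The liver of 1,2-DCB control 8 accounted for 11 of them. In normalised CPM, it was lowest of its set in Rup2 (70500, others 157000 to 253000) and Sult2a6 (1410, others 3090 to 4530). It was highest in Gc (122000, others up to 57100), Cyp3a1 (4510, up to 1990), Cp (7110, up to 2610), Tdo2 (1460, up to 715) and Cyp2e1 (26800, up to 17100). The same held at smaller distance for Plg (12900, up to 11200), Cpb2 (830, up to 689), Uroc1 (49.9, up to 36.8) and Dcn (5.21, up to 2.68).

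Other livers stood apart in fewer genes. The liver of 1,4-DCB control 4 was high in Sult2a6 (5550), A1bg (216), Kdr (182) and Acot1 (0.131), and that of 1,4-DCB control 7 in Sdha (646), Slc2a1 (4.81), Scd (2.52) and Postn (0.573). In 1,4-DCB control 8, C4bpa was high (1460) and Ehhadh low (48.1, others 97.1 and above). Single values in 1,4-DCB controls were Pgam2 at 0.197 in control 9 and Sult1c2 at 0.791 in control 10. Among 1,2-DCB controls, control 9 was high in Cyp4a8 (10.1), Sult1c2 (0.674) and Col5a3 (0.337), control 6 in Oxct1 (5.16) and Postn (0.833), and control 10 in Hba2 (100) and Cyp1b1 (1.34). Control 4 was high in Rrm1 (29.2), control 5 in Cnn1 (1.47) and control 1 in Slc51a (0.155). Values under 1 rest on few counts.

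The liver contrast differed between the control sets by the edgeR interaction test in the following named genes (1,4-DCB minus 1,2-DCB, log2). For Tsku the difference was -0.92 and for Dnajb1 -0.70 (adjusted p = 0.00702). For Slc2a1, the glucose transporter GLUT1, it was 0.96 (adjusted p = 0.0452), with liver means of 1.25 and 2.62 in 1,2-DCB and 1,4-DCB controls. For Trpc6, a calcium channel, the fitted value was -4.87 (adjusted p = 0.0413), and since no 1,4-DCB liver held a count this value depends on the model's prior and is no measure of size.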

How the results depend on the processing

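Alternatives that left out the 6 hearts, the liver of 1,2-DCB control 8, the kidney of 1,4-DCB control 1 or the ovary of the lowest total, and totals of step-divided counts, were chosen after seeing the data. Counts are given as percent of the 2654 probes on the panel. Without the replicate block, 7.69% were liver-high and 4.90% liver-low, against 7.72% and 4.86% with it, and the block moved no count by over 1.5 times. With library totals 10.3% were called higher, 79.4% lower, 4.22% were liver-high, 52.2% liver-low and 0.264% differed between the control sets. With totals of step-divided counts the first 4 shares were 15.3%, 72.8%, 5.01% and 17.6%. The liver-low share was 7.46% with upper quartile factors and 3.20% with a filter at a mean of 20 CPM. At a log2 fold of at least 1, 12% were liver-high and 9.72% liver-low, and at 3, 2.26% were liver-low. Without kidney 11.8% were liver-high. The share that differed between the sets was 0.565% with limma voom and without kidney, and 0.603% without lung and without the liver of 1,2-DCB control 8. Of 2960 comparisons of named genes with an alternative, 2901 kept direction and side of the threshold, 25 lost and 5 gained the call, and 29 reversed. Reversed log2 differences with library totals were Acaa1a -0.18, Emr1 -0.86, Mrc1 -1.03, C1qb -1.11, Cd68 -1.59, Kdr -2.49, Ppia -2.59, Ms4a1 -2.81 and S100a9 -2.97. With step-divided totals they were Cd68 -0.23, Kdr -1.12, Ppia -1.22, Ms4a1 -1.47 and S100a9 -1.62, and with upper quartile factors Ms4a1 -0.21 and S100a9 -0.36. Without kidney they were Cyp4a8 2.17, Nr2f2 0.38, Ms4a1 -0.08 and S100a9 -0.24. Without ovary they were Me1 0.44, Nr2f2 0.04, Aurka 0.12, Dnajb1 0.14, Ms4a1 -0.20 and S100a9 -0.25. The others were Lck without lung (0.31), Myl2 without heart (0.34) and Dnajb1 in 1,2-DCB controls alone (0.21). The cause was not tested. Depth limits values under about 1 normalised CPM, and probes with no count in a tissue have no finite fold.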

Other observations

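Among the 80 liver-high probes in no list were genes of vitamin handling and of transport. Ttpa, which loads vitamin E onto lipoproteins, had a mean of 2052 normalised CPM in liver and at most 7.585 in another tissue. Gulo, the last enzyme of vitamin C synthesis in rats, had a mean of 448.8 against at most 0.6764. Car5a, a mitochondrial carbonic anhydrase, had 276.1 against at most 0.1003, and Aqp9, a glycerol channel, 282.2 against 6.69 in ovary. Fabp7, a fatty acid binding protein first known from brain, had a mean of 573.1 in liver and at most 0.1121 elsewhere. Pzp, an alpha-2-macroglobulin family protein, had 63120 in liver, with 821.2 in kidney.

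Dpyd levels of the livers fell on both sides of a gap, a description made after the levels were seen and without a test. In liver 8 rats lay at 43.34 to 57.99 normalised CPM and 12 at 126.7 to 314, and of the 8, 3 were 1,2-DCB and 5 were 1,4-DCB controls. In kidney no library lay between 7.86 and 9.84, in lung none between 2.46 and 6.91, in ovary none between 4.22 and 6.06 and in heart none between 0.863 and 1.15. These intervals separate the rats as grouped by the liver gap and are not the widest spaces in every tissue. In ratio, the neighbours 0.4178 and 0.6877 in heart and 1.882 and 3.237 in ovary lay further apart. The rats below the liver gap lay under all others in every tissue in which they were measured. They were 1,2-DCB controls 1, 3 and 10 and 1,4-DCB controls 1, 2, 5, 6 and 8. The heart values are near the detection limit.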
